A study of Mus musculus with 15 samples.

Results

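The genes described here make cholesterol, set how much of it is made, and move it between and out of cells. They are 31 named genes, matched by Ensembl identifier to 31 of the 46078 rows of the count table, and they were chosen for their place in the pathway. The choice was made with earlier results of these data known. Counts of members set beside all genes are therefore descriptions, not independent support. The mevalonate and isoprenoid steps hold 9 of them, the squalene and late sterol steps 12, the control of the SREBP factors 5, and sterol transport 5. Other enzymes of the pathway were not analysed here. All were measured by RNA sequencing of the retinal pigment epithelium (RPE), the pigmented layer behind the photoreceptors.

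The mice were females of postnatal day 14, and RNA extraction began 2 hours after lights came on. There are 4 groups. Mertk KO (4 libraries) carries a knockout of Mertk, the receptor kinase needed to take in outer segments shed by photoreceptors, and Mertk WT (4 libraries) is its control. Bai1 Tg pos (3 libraries) carries a transgene for Bai1, an adhesion receptor for phosphatidylserine whose gene symbol is Adgrb1, and Bai1 Tg neg (4 libraries) is labelled as without it. Mertk is wild type in both Bai1 groups. Every library has the same strain label, a mixture of C57BL/6J with B6;129-Mertktm1Grl/J. The sources used here name neither the promoter nor the species of the transgene. They also do not say whether the libraries of a group are separate animals, and the p-values therefore cover only the spread among these libraries, which may be technical.

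Cholesterol is built from acetyl-CoA through mevalonate and the isoprenoid diphosphates, which also feed dolichol, ubiquinone and the prenyl groups of small GTPases. Squalene is then closed to lanosterol, and a chain of endoplasmic reticulum enzymes trims lanosterol to cholesterol. When membrane sterol is low, Scap carries the SREBP factors, encoded by Srebf1 and Srebf2, to the Golgi for cleavage, and the freed factors raise transcription of most enzymes of the pathway and of Insig1. Insig1 and Insig2 hold Scap back when sterol is plentiful. The RPE takes up lipid from outer segments and from the blood, and ABC transporters export cholesterol from it.

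Library totals lay between 9591129 and 20024507 counted fragments. Rpe65, the retinoid isomerase of the RPE, ranged from 4175 to 6667 CPM (counts scaled to library size with TMM factors) over the 15 libraries, and the summed level of 12 RPE markers from 54630 to 63110 CPM, with only Slc16a3 of them under 1 CPM throughout. Mertk was at 155 to 195.9 CPM in Mertk KO and at 233.3 to 261.9 CPM in Mertk WT, counted over all exons, whatever the allele lacks. Adgrb1 was at 166.2 to 169.9 CPM in Bai1 Tg pos, while Bai1 Tg neg 1 to 3 had 0.142 CPM or less. At 143.5 CPM of Adgrb1, the library labelled Bai1 Tg neg 4 went against its label, and the main tests of the members that use it are also given without it. RPE and other cells were sequenced in bulk, so fewer cells of a type and less RNA per cell cannot be told apart.

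Of the 31 genes, 30 were detected in every library, with at least 69 fragments each. The exception was Abcg1, a sterol exporter of macrophages, with 0 to 17 fragments. It stood under 3 counts, the floor used here for undetected genes (0.15 to 0.313 CPM across libraries), in at least 1 library of each group, and was too low to enter the comparisons of 2 groups. Abca1, the exporter that loads cholesterol onto apolipoproteins, had a median of 15.3 FPKM, that is, fragments scaled to exon length and library size. Levels per exon length put the lysosomal sterol carrier Npc2 first, at a median of 222 FPKM (192.7 to 237.8 FPKM over the 15 libraries). Npc1, the membrane protein that receives cholesterol from Npc2, stood at 3.99 FPKM. Exon length counts every annotated exon of a gene, 3261 bases for Npc2, 10725 for Npc1 and 4208 for Fdps. The order of levels, here and below, thus depends on the annotation.

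Among the mevalonate genes, Hmgcs1, which condenses acetyl-CoA units to HMG-CoA, was the most abundant, at a median of 142 FPKM, and Fdps, the farnesyl diphosphate synthase, had the lowest median over the 15 libraries, at 5.75 FPKM. In Bai1 Tg neg, Fdps averaged 12.6 ± 2.21 FPKM (SD, n = 4), above Ggps1, the geranylgeranyl diphosphate synthase, at 9.50 ± 0.837 FPKM and Acat2 at 10.1 ± 1.03 FPKM. Fdft1, the squalene synthase that commits isoprenoids to sterol, led the late steps at 83.6 FPKM, and Lbr, a nuclear envelope protein with sterol reductase activity, came last at 3.89 FPKM. Among the 5 SREBP control genes, Insig1 had a median of 143 FPKM over the 15 libraries, against 16.2 FPKM for its relative Insig2. Insig1 and Hmgcs1 are neighbours in the order of levels and their ranges (78.9 to 190.6 and 72.8 to 175.4 FPKM) overlap almost fully. The next gene, Fdft1, reached 102.8 FPKM and so also overlapped the lower end of both ranges. Srebf2 and Srebf1 lay close together, at medians of 54.3 and 54.2 FPKM. Fdft1 shares 26.8% of its exon bases with Ctsb on the opposite strand, a gene at 1107 to 1341 CPM, and the counting used no strand, so how Fdft1 reads were assigned is uncertain.

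**Figure D1:**
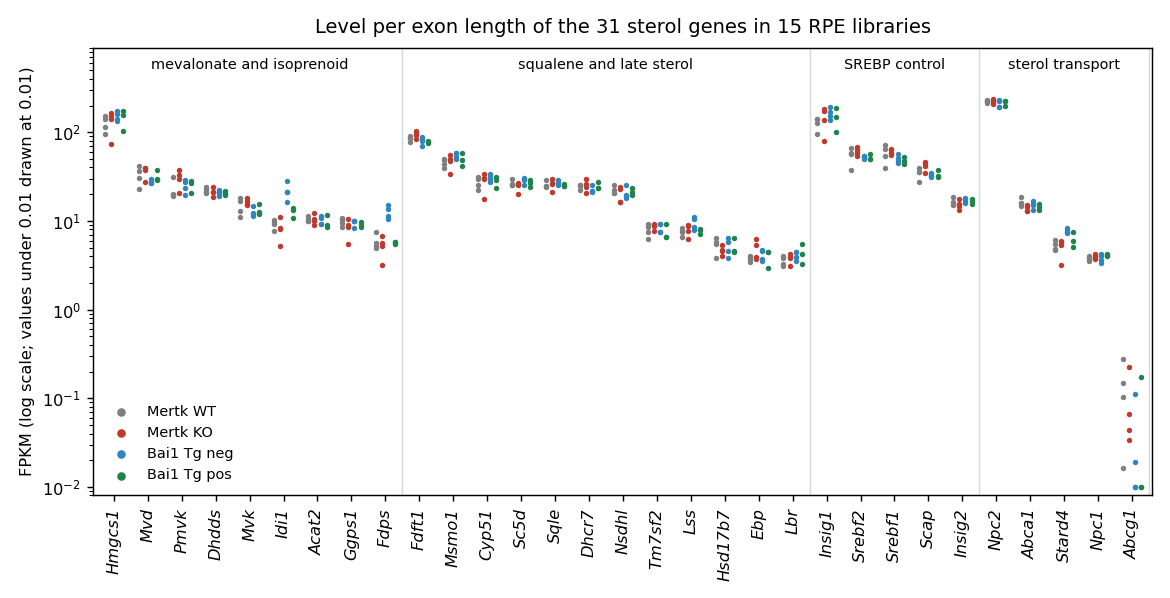
Levels in FPKM (y axis, log scale) of the 31 genes (x axis, grouped by step and ordered by median), with 1 point per library coloured by group. Npc2, Insig1 and Hmgcs1 stand highest, Abcg1 lies far below the rest, and the Bai1 Tg neg points of Idi1 and Fdps lie above those of the other groups.

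The promoter of Hmgcs1 is shown because Hmgcs1 is the most abundant enzyme gene of the set and because its 150 bases before the start hold the letters of an SREBP element. SREBP factors are known to act with NF-Y, which binds CCAAT boxes, and Sp1, which binds GC boxes. The letters are from RefSeq (GRCm38.p6), at chr13:119690201-119690350 on the plus strand, 5′ to 3′, with the element TCACNCCAC and the CCAAT box (read here as its reverse complement, ATTGG) in capitals. Sites of 30 bases around a CCAAT box follow for Idi1 (chr13:8885576-8885605, plus strand), which differed between groups, and for Insig1 (chr5:28071184-28071213, plus strand) and Lss (chr10:76531531-76531560, plus strand), which were lowest in the same Mertk libraries as Hmgcs1. The Idi1 site lies in annotated exon sequence, and the other 3 stretches hold no annotated exon base.
Hmgcs1: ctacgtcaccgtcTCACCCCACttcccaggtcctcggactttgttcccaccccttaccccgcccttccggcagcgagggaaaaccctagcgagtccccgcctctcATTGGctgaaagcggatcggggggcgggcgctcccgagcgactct
Idi1: catggtccaaggtgccATTGGctggcgacc
Insig1: cgccctcctcccATTGGctccggcggcctc
Lss: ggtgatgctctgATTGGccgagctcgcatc

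RefSeq promoter entries were found for 25 of the 31 genes; Fdps, Fdft1, Sqle, Stard4, Npc1 and Abcg1 had none. In the 250 bases before the start, on either strand, CCAAT was present in 22 of 25 (88%), against 37.5% of 27025 genes with an entry. These shares count a gene if any of its promoters matched. Counted per promoter, CCAAT was in 33.8% of all and in 33.9% of those of like G+C content. Like G+C content means 56.8% to 65.6%, the interquartile range of the members' promoters. GGGCGG, the GC box, was present in 23 of 25 (92%), against 35.4% of all genes. Per promoter it was in 32.7% of all and in 57.5% of those of like G+C content. The members' shares per promoter were not computed for either motif. Their shares per gene therefore cannot be set directly against those of like G+C content. The G+C median was 62.4% in the members' promoters and 52.4% in all. The SREBP element TCACNCCAC was present only in Hmgcs1 among the 25 (4%, against 1.22% of all genes). Its looser form TCACNCNAC was found in Hmgcs1 and Nsdhl (8%, against 2.65%), and the shorter CACNCCAC in Acat2, Hmgcs1 and Insig1 (12%, against 6.05%). The classical sterol regulatory element in full was found in none of the 25 and in 0.0814% of genes. The Hmgcs1 match counts for 3 of these 4 overlapping forms. The 6 motifs were chosen after the values were seen, and a match is a description of letters, not of binding.

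Whether loss of Mertk goes with a change in sterol genes was asked first. In edgeR's quasi-likelihood test with Benjamini-Hochberg adjustment over all genes, 0 of the 30 members tested passed an adjusted p of 0.05 in Mertk KO against Mertk WT. Over all 13447 genes 0.223% passed, 8 higher and 22 lower. DESeq2 and limma-voom also called 0 members, and 1 of 30 was at an unadjusted p under 0.05, against 5.58% of all genes. No member had libraries that did not overlap between the groups, against 3.52% of all genes. The log2 fold changes ran from -0.23 (Abca1) to 0.42 (Pmvk, a mevalonate pathway kinase), and their SEs from 0.068 (Npc2) to 0.267 (Hmgcs1). Their median was 0.03, against -0.001 over all genes. The median size of change, without sign, was 0.128 for the members and 0.116 for all genes.

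By step, the median log2 fold change was -0.004 for the 9 mevalonate genes, 0.03 for the 12 late sterol genes, 0.14 for the 5 control genes and -0.03 for the 4 transport genes tested. Abca1, the member at an unadjusted p under 0.05, was at 151.6, 193, 164.6 and 164.8 CPM in Mertk WT 1 to 4 and at 150.5, 134.4, 133.4 and 158.1 CPM in Mertk KO 1 to 4. The 2 groups overlapped, and the difference (log2 fold change -0.23, SE 0.089) had an adjusted p of 0.771. Scap, the sterol-sensing escort of SREBP, was at 266.9, 204.4, 267.9 and 295.4 CPM in Mertk WT 1 to 4 and at 258.3, 321.9, 344.2 and 305.6 CPM in Mertk KO 1 to 4. Its difference was 0.24 on the log2 scale (SE 0.121, adjusted p = 0.893), with Mertk KO 1 inside the range of the controls. The members called in other comparisons showed no such call here. In Mertk KO 1 to 4, Idi1 was at 38.7, 28.6, 29.3 and 18.4 CPM, Fdps at 23.7, 21.8, 28.4 and 13.5 CPM, and Stard4 at 33.0, 29.8, 32.7 and 17.9 CPM, each lowest in Mertk KO 4 and each overlapping Mertk WT, whose values are given with the control sets. Rod markers, as a sign of adhering photoreceptor RNA, had a summed level of 966.5 to 4000 CPM in Mertk WT and 1075 to 1744 CPM in Mertk KO, and with their mean level as a covariate the number of members called was again 0.

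The next comparison asked what the Bai1 transgene goes with. Fdps, which makes farnesyl diphosphate, the branch point to sterol, dolichol and prenylation, was lower in Bai1 Tg pos. It stood at 47.4, 64.2, 57.1 and 43.7 CPM in Bai1 Tg neg 1 to 4 and at 24.6, 23.3 and 24.2 CPM in Bai1 Tg pos 1 to 3. The groups did not overlap, and the 3 Bai1 Tg pos libraries were nearly alike. The mean level in Bai1 Tg neg was 2.21 times that in Bai1 Tg pos, and the log2 fold change was -1.14 (SE 0.129, adjusted p = 0.00425). Fdps was 1 of 2 genes called among 13855 tested (0.0144%), and the only one of the 30 members tested.

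The call depended on the fit. It was lost in a fit of all 15 libraries (adjusted p = 0.272), with limma-voom and quality weights (adjusted p = 0.0626) and without Bai1 Tg neg 3 (-1.10, adjusted p = 0.0616). Without Bai1 Tg neg 4, the library that holds Adgrb1 against its label, Fdps was at -1.22 (SE 0.124, adjusted p = 0.00171), in a fit that called 0.0369% of all genes. Bai1 Tg neg 4, at 143.5 CPM of Adgrb1, had the lowest Fdps level of its group, 43.7 CPM, and lay above all 3 Bai1 Tg pos libraries. Whether Fdps follows the level of Adgrb1 was not tested.

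Idi1, the isomerase that makes dimethylallyl diphosphate, the partner substrate of Fdps, was at 73.5, 97.9, 74.0 and 57.3 CPM in Bai1 Tg neg 1 to 4 and at 46.6, 49.5 and 37.3 CPM in Bai1 Tg pos 1 to 3. Here too the groups did not overlap, as for 3.41% of all genes in that direction, and Bai1 Tg neg 4 was again the lowest of its group. The log2 fold change was -0.76 (SE 0.168, adjusted p = 0.657), so the difference did not pass. With DESeq2 it did (-0.76, adjusted p = 0.00209), in a fit that called 26 genes. It also did with no filter on low counts (-0.77, adjusted p = 2.45e-10), in a fit that called 85 of 22874 genes. The main fit called 2 of 13855. Without Bai1 Tg neg 4 Idi1 was at -0.88 (adjusted p = 0.0604). Lss, the lanosterol synthase, and Stard4, a soluble carrier of cholesterol between membranes, were the other members at an unadjusted p under 0.05, at log2 fold changes of -0.30 (SE 0.114, adjusted p = 0.948) and -0.33 (SE 0.122, adjusted p = 0.948). In all 4 of 30 members were at an unadjusted p under 0.05, each lower, against 2.41% of all genes in that direction. The remaining 26 lay between -0.16 and 0.20 on the log2 scale. Without Bai1 Tg neg 4, Lss was at -0.35 (SE 0.119, adjusted p = 0.988) and Stard4 at -0.34 (SE 0.137, adjusted p = 0.988). In that fit the same 4 members were lower at an unadjusted p under 0.05, against 2.05% of all genes in that direction. Dhcr7, a late sterol reductase, was higher (0.19, SE 0.087, adjusted p = 0.988) with libraries that did not overlap. The share of all genes that were higher without overlap was not counted. The library left out held the highest Dhcr7 level of its group, 96.7 CPM, and with it the groups overlapped. Idi1 and Fdps were then the 2 members with lower levels that did not overlap, against 5.57% of all genes in that direction.

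Markers of other cell types were set beside this comparison. The 17 rod markers summed to 232.5 to 511.2 CPM in Bai1 Tg neg and 277.9 to 851.5 CPM in Bai1 Tg pos, and with their mean level as a covariate Fdps was at -1.15 (SE 0.144, adjusted p = 0.0252). The 7 smooth muscle and pericyte markers, of which Des was under 1 CPM throughout, summed to 251.3 to 300 CPM in Bai1 Tg neg and 318.1 to 502.1 CPM in Bai1 Tg pos. Myh11, a smooth muscle myosin, was at 28.2 and 97.2 CPM in Bai1 Tg pos 1 and 2 and at 0.374 CPM in Bai1 Tg pos 3. Fdps was at 24.6, 23.3 and 24.2 CPM in Bai1 Tg pos 1 to 3. The part of the smooth muscle and pericyte markers in the Fdps difference was not tested.

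The 2 control sets, Bai1 Tg neg and Mertk WT, both carry wild-type Mertk and, by their labels, no transgene. They use the Bai1 Tg neg libraries of the comparison above, so its results and these are not independent. Idi1, Fdps and Stard4 were higher in Bai1 Tg neg than in Mertk WT, 3 of the 30 members tested, and no member was lower. Over all 13459 genes 0.431% were called, and 0.104% were called higher.

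Idi1 was at 33.8, 35.5, 32.0 and 27.3 CPM in Mertk WT 1 to 4, all below the lowest Bai1 Tg neg library at 57.3 CPM. The mean level in Bai1 Tg neg was 2.35 times that in Mertk WT (log2 fold change 1.23, SE 0.145, adjusted p = 0.00509). Fdps was at 31.8, 23.5, 21.0 and 21.9 CPM in Mertk WT 1 to 4, against 43.7 CPM or more in Bai1 Tg neg. Its ratio of means was 2.17 (log2 fold change 1.11, SE 0.152, adjusted p = 0.00897). All 3 Bai1 Tg pos values of Fdps, 23.3 to 24.6 CPM, lay inside the Mertk WT range, a comparison that was not tested. Idi1 and Fdps passed in all 15 alternative fits, Idi1 at 1.08 to 1.34 and Fdps at 1.01 to 1.26 on the log2 scale. Without Bai1 Tg neg 4 their log2 fold changes were 1.34 and 1.20 (adjusted p = 0.00118 and 0.0136), in a fit that called 0.204% of all genes.

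Stard4 was at 26.7, 30.8, 33.8 and 26.0 CPM in Mertk WT 1 to 4 and at 40.4, 46.4, 43.6 and 42.0 CPM in Bai1 Tg neg 1 to 4. These groups did not overlap, and its ratio of means was 1.47 (log2 fold change 0.55, SE 0.1, adjusted p = 0.0304). The call was lost in 7 of 15 alternatives. It did not pass without Mertk WT 1 (adjusted p = 0.0504) or 4 (0.0563), nor without Bai1 Tg neg 1 (0.101), 2 (0.126), 3 (0.0682) or 4 (0.0846), nor in a fit of all 15 libraries (0.174), while its log2 fold change stayed between 0.50 and 0.63. Idi1, Fdps and Stard4 were the 3 members with groups that did not overlap, as 2.79% of all genes did in that direction. Without Bai1 Tg neg 4 they were joined by Insig1, so that 4 members were higher without overlap, against 4.46% of all genes.

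In the same comparison 3 more members were at an unadjusted p under 0.05, also higher, so that 6 of 30 were, against 4.2% of all genes in that direction. Msmo1, a sterol methyl oxidase of the late steps, was at 269.9, 297.4, 307.7 and 245.3 CPM in Mertk WT 1 to 4 and at 307.5, 357.3, 358.8 and 322.7 CPM in Bai1 Tg neg 1 to 4 (log2 fold change 0.26, SE 0.084, adjusted p = 0.30). Only Mertk WT 3 and Bai1 Tg neg 1 crossed, at 307.7 and 307.5 CPM. Lss was at 80.5, 82.0, 89.7 and 70.1 CPM in Mertk WT 1 to 4 and at 84.3, 112.1, 120.7 and 91.1 CPM in Bai1 Tg neg 1 to 4 (log2 fold change 0.34, SE 0.114, adjusted p = 0.371). Insig1 was at 395, 439.7, 441.4 and 298.4 CPM in Mertk WT 1 to 4 and at 471.4, 589.4, 529.6 and 424.1 CPM in Bai1 Tg neg 1 to 4 (log2 fold change 0.35, SE 0.133, adjusted p = 0.478). For both genes the groups overlapped. The step medians were -0.03 for mevalonate, 0.09 for late sterol, -0.07 for control and -0.04 for transport, against 0.002 over all genes. Without Bai1 Tg neg 4, Msmo1 was at 0.28 (SE 0.095, adjusted p = 0.409), Lss at 0.39 (SE 0.123, adjusted p = 0.377) and Insig1 at 0.43 (SE 0.132, adjusted p = 0.375). The same 6 members were higher at an unadjusted p under 0.05, against 3.52% of all genes in that direction. Dhcr7 was lower (-0.18, SE 0.08, adjusted p = 0.658) with libraries that did not overlap. The share of all genes that were lower without overlap was not counted. With Bai1 Tg neg 4, at 96.7 CPM of Dhcr7, the groups overlapped. The step medians in that fit were -0.006 for mevalonate, 0.08 for late sterol, -0.06 for control and -0.06 for transport.

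**Figure D2:**
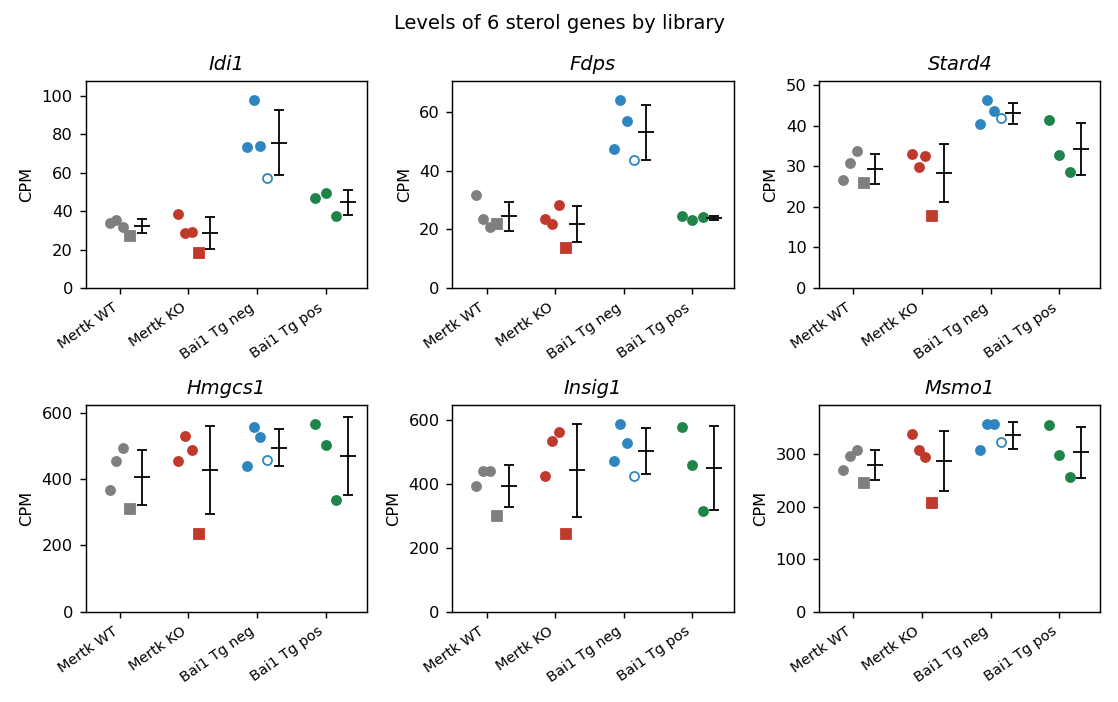
CPM (y axis, from 0) of 6 genes by group (x axis); points are libraries and bars give the mean and SD. Squares are Mertk WT 4 and Mertk KO 4, and the open circle is Bai1 Tg neg 4, which holds Adgrb1 against its label. Idi1, Fdps and Stard4 are higher in every Bai1 Tg neg library than in every Mertk WT library, and both squares lie low for Hmgcs1 (308.3 and 235.5 CPM) and Insig1 (298.4 and 244.1 CPM).

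Other differences coincided with the control set. The labels give each library a tag of unstated meaning. Its first number is 12 for the Bai1 libraries, 17 for most Mertk libraries and 21 for replicate 4 of both Mertk groups, so tag and control set cannot be told apart. All 17 rod markers were lower in Bai1 Tg neg than in Mertk WT, 16 of them at an unadjusted p under 0.05 and 1 past the threshold (Rom1, a disc rim protein, -0.54, SE 0.094, adjusted p = 0.0265), with a median log2 fold change of -3.74 and summed levels of 232.5 to 511.2 against 966.5 to 4000 CPM. All 6 cone markers tested were lower as well, 4 of them at an unadjusted p under 0.05 and none past the threshold, with a median of -1.18, and the 9 cone markers summed to 19.9 to 29.6 CPM in Bai1 Tg neg and 39.9 to 71.5 CPM in Mertk WT. Of 11 microglia and macrophage markers, Aif1, Ptprc, P2ry12 and Tyrobp were under 1 CPM in all libraries. The sum was at 637.9 to 704.5 CPM in Mertk WT and 620.9 to 647.3 CPM in Bai1 Tg neg, nearly all of it Csf1r. Cd68 was higher in Bai1 Tg neg (1.11, SE 0.193, adjusted p = 0.0263), while Csf1r, the only other marker tested, was at -0.07. Cx3cr1, C1qa, C1qb, C1qc and Lyz2 were at 0.926 CPM or less in Mertk WT and 0.25 CPM or less in Bai1 Tg neg. The list as a whole was thus not higher in Bai1 Tg neg. The part of these in the differences of Idi1, Fdps and Stard4 was not tested.

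Near-identical copies could move reads of these genes. The processed pseudogene Gm13502 on chromosome 2 matches Idi1 (chromosome 13, 8885501 to 8892451) at 100% over 684 bases, and stood at 0.25 to 7.47 CPM. Gm3571 matches Fdps (chromosome 3, 89093588 to 89101959) at 98.9% over 1062 bases, and stood at 0.25 to 1.25 CPM. Fdps also shares 26.7% of its exon bases with Gm43738, at 0.071 CPM or less. With copies summed into the gene, the control-set differences were 1.08 for Idi1 (adjusted p = 0.0292) and 1.08 for Fdps (adjusted p = 0.0114), and the Bai1 difference of Fdps was -1.12 (adjusted p = 0.0058). These sums add only fragments counted for a copy. Fragments left uncounted, for matching several places or lying in shared exons, would not be covered. Acat2, the cytosolic thiolase of the opening step, matches Acat3 at 97.7% over 1477 bases, so the share of reads between those is uncertain. Fdps rests on 210 to 1078 fragments per library, Idi1 on 262 to 1643 and Stard4 on 250 to 842.

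**Figure D3:**
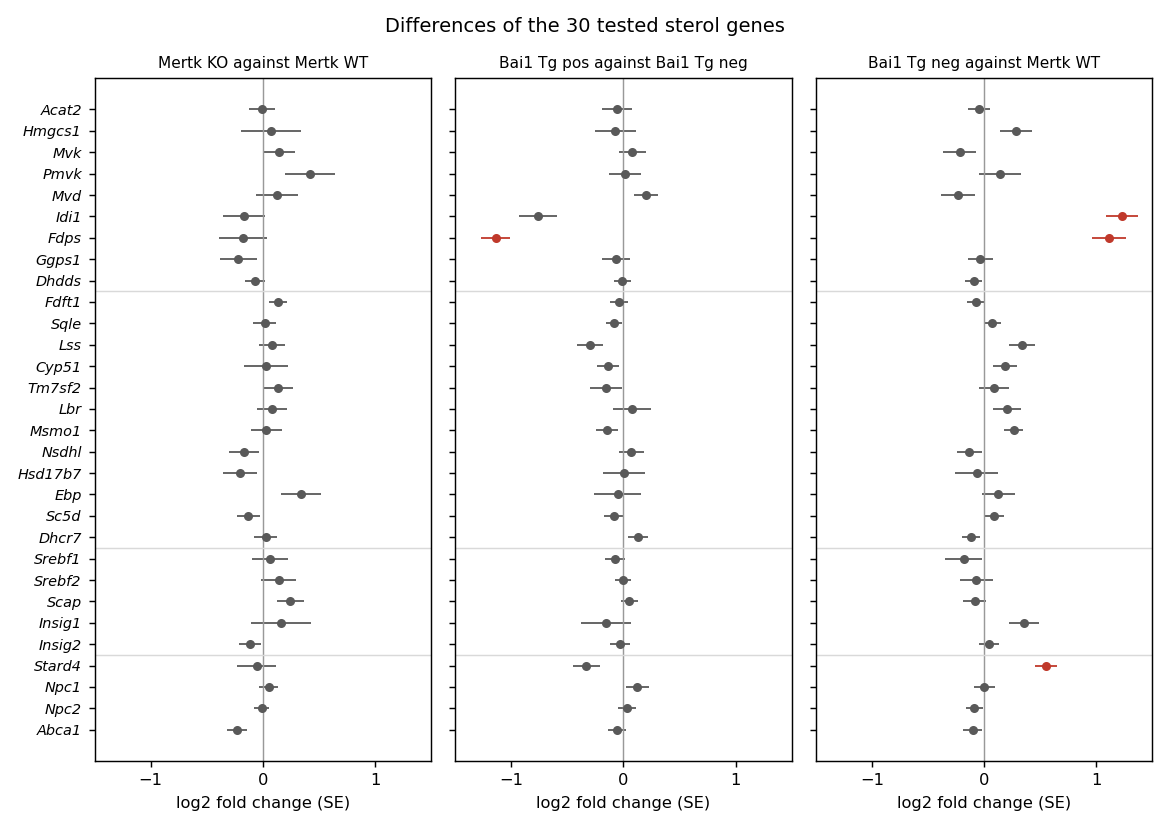
Log2 fold changes with SE (x axis) of the 30 tested genes (y axis, grouped by step) in 3 comparisons, red where the adjusted p is under 0.05 in edgeR. In the left panel all lie between -0.23 and 0.42, in the middle panel Fdps stands out at -1.14, and in the right panel Idi1, Fdps and Stard4 lie at 1.23, 1.11 and 0.55.

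A test of the difference between the Mertk and Bai1 effects, which share no library, called 0 of 31 members in edgeR, DESeq2 and limma-voom, while edgeR called 0.103% of 14520 genes. At an unadjusted p under 0.05 there were 2 members, Fdps and Lss, against 7.53% of all genes. The Mertk effect on Fdps (-0.18, SE 0.214) exceeded the Bai1 effect (-1.14) by 0.96 on the log2 scale (SE 0.276, adjusted p = 0.319). It passed only without Mertk KO 4 (1.14, SE 0.217, adjusted p = 0.0457), and over the other alternatives the adjusted p ran from 0.0772 to 0.523. For Idi1 the difference of effects was 0.60 (SE 0.282, adjusted p = 0.666). Without Bai1 Tg neg 4 it was 1.05 for Fdps (SE 0.278, adjusted p = 0.288) and 0.71 for Idi1 (SE 0.267, adjusted p = 0.572). That fit called 0 members, and 17 of 14427 genes. In it 3 members (Idi1, Fdps and Lss) were at an unadjusted p under 0.05, and the share of all genes at that level was not counted.

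Members also varied within groups, and this was noticed after the values were seen. Hmgcs1 was at 365.6, 454.1, 492.7 and 308.3 CPM in Mertk WT 1 to 4 and at 454.6, 531.1, 488.3 and 235.5 CPM in Mertk KO 1 to 4. Insig1 was at 426, 536.2, 563.8 and 244.1 CPM in Mertk KO 1 to 4, with its Mertk WT values given above. In each group replicate 4, whose first tag number is 21 where replicates 1 to 3 have 17, was the lowest. Mertk KO 4 was the lowest of its group for 20 of 31 members, against 22.1% of all 14520 genes, and Mertk WT 4 for 15 of 31, against 24.6%. Both were lowest for 11 members, against 7.86% of all genes.

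These 11 were Hmgcs1 and Idi1 of the mevalonate steps, Fdft1, Lss, Cyp51, Msmo1, Sc5d and Dhcr7 of the late steps, Insig1 of the control genes, and Stard4 and Npc2 of transport. Cyp51 is the lanosterol demethylase, Sc5d a sterol desaturase and Dhcr7 the reductase of the last step of one route. Srebf1 and Srebf2, which encode the SREBP factors, were lowest in Mertk KO 4 but not in Mertk WT 4. Their log2 differences between tag numbers were 0.03 (SE 0.196) and -0.03 (SE 0.195). Srebf1 was at 354.1, 330.6, 360.5 and 307.9 CPM and Srebf2 at 294, 313.5, 339.1 and 270.8 CPM in Mertk KO 1 to 4. Srebf2 was at 335, 189.4, 280.9 and 294.5 CPM in Mertk WT 1 to 4, and Srebf1 at 400.7, 223.3, 305.1 and 360.8 CPM. Both were lowest in Mertk WT 2, where Hmgcs1 was above its group mean. Of 16 fatty acid genes known as SREBP targets, Mertk KO 4 was the lowest for 12 and Mertk WT 4 for 3.

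With genotype and tag number as terms over the 8 Mertk libraries, edgeR called 0 of 30 members between tag numbers 21 and 17 and 0.104% of all genes; no other tool was run. At an unadjusted p under 0.05 there were 9 of 30 members, all lower in tag 21, against 3.73% of all genes in that direction. The largest differences were Insig1 at -0.77 (SE 0.145, adjusted p = 0.14), Hmgcs1 at -0.76 (SE 0.149, adjusted p = 0.158), Cyp51 at -0.58 (SE 0.13, adjusted p = 0.233) and Idi1 at -0.55 (SE 0.158, adjusted p = 0.489). The tag number coincides with replicate number 4, and only 1 library of each group carries tag 21. Mertk WT 4 also had the fewest counted fragments of all libraries, 9591129, and Mertk KO 4 had 16834711. All 17 rod markers were lower in tag 21, with a median of -0.88, 1 at an unadjusted p under 0.05 and none called. Of the 7 cone markers tested, with a median of -1.93, 4 were lower at an unadjusted p under 0.05 and Pde6c, a cone phosphodiesterase subunit, was called higher (1.33, SE 0.214, adjusted p = 0.0486). The cone markers summed to 39.9 and 40.1 CPM in Mertk WT 4 and Mertk KO 4 and to 38.7 to 71.5 CPM in the other Mertk libraries. The part of the rod and cone markers in the differences was not tested. With only tag 17 libraries, 0 members were called between Mertk KO and Mertk WT.

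Among the Bai1 libraries, Bai1 Tg pos 3 was the lowest of its group for 16 of 31 members, against 32.7% of all genes, and Bai1 Tg pos 1 the highest for 18, against 35.4%. Hmgcs1 was at 567.2, 501.1 and 338 CPM and Insig1 at 578, 458.8 and 314.3 CPM in Bai1 Tg pos 1 to 3. Fdps, at 24.6, 23.3 and 24.2 CPM in the same libraries, did not follow them. Bai1 Tg neg 1 was the lowest of its group for 16 of 31 members, against 27.9% of all genes.

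**Figure D4:**
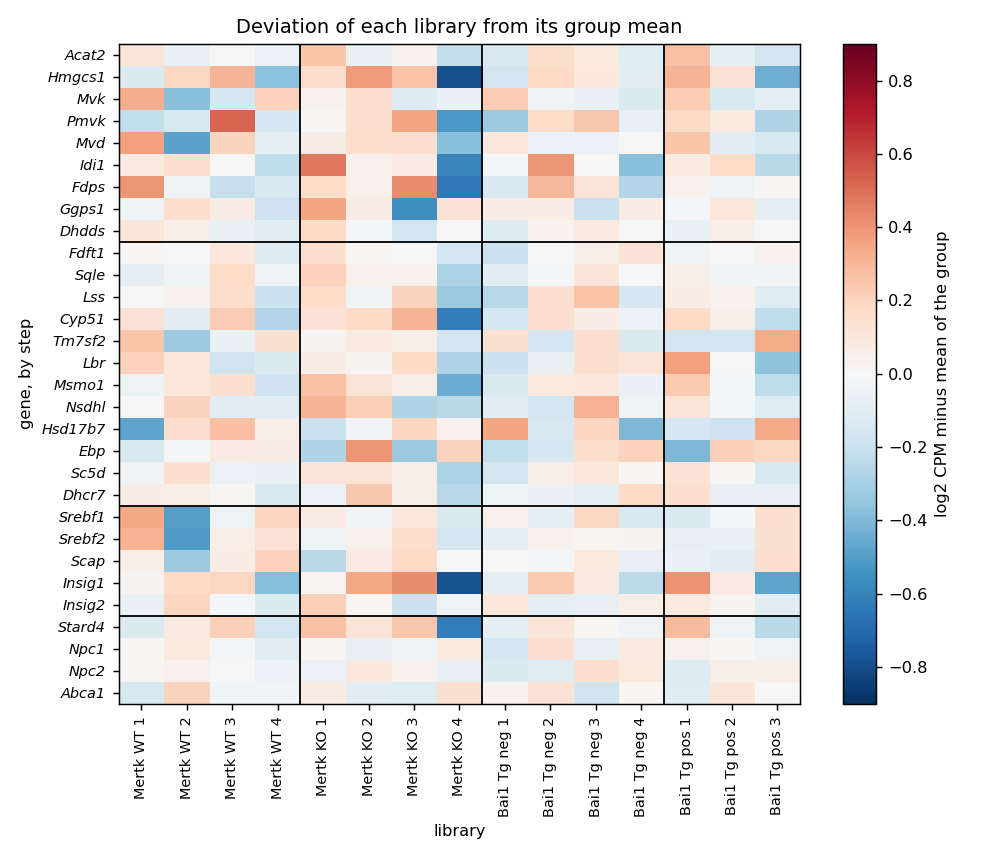
Deviation of each library (x axis) from its group mean in log2 CPM (colour) for 30 genes (y axis, by step; Abcg1 is left out as near 0). Mertk KO 4 is below its group mean by 0.79 for Hmgcs1 and 0.79 for Insig1, Mertk WT 4 by 0.37 and 0.38, and Bai1 Tg pos 3 by 0.44 and 0.48.

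Companion lists were read beside the members. Of 16 fatty acid genes known as SREBP targets, 1 fell in Mertk KO: Acss2, which makes acetyl-CoA from acetate and lies on chromosome 2 as Mertk does, was at 19.4, 17.0, 21.7 and 28.5 CPM in Mertk WT 1 to 4 and 8.16, 10.4, 8.45 and 8.90 CPM in Mertk KO 1 to 4 (log2 fold change -1.27, SE 0.168, adjusted p = 0.00484). Acss2 shares 3.9% of its exon bases with Gss and 1.9% with Ggt7, both on the opposite strand. At an unadjusted p under 0.05 there were 3 of the 16 in Mertk KO, all lower (18.8%, against 5.58% of all genes): Acss2, Fads2 and Gpam, an acyltransferase of glycerolipid synthesis (-0.21, SE 0.078, adjusted p = 0.715), the last named after its values were seen. None of the 16 was called in the Bai1 comparison (0 at an unadjusted p under 0.05, against 5.18% of all genes) or between the control sets (1, or 6.25%, against 7.99%). Fads2, a fatty acid desaturase, was the 1 gene of that list called in the difference of effects (-0.53, SE 0.099, adjusted p = 0.0299). It stood at -0.40 (adjusted p = 0.0741) in Mertk KO and at 0.13 (adjusted p = 0.948) in Bai1 Tg pos. Its level was 453.1 to 507.9 CPM in Mertk WT and 329.4 to 386 CPM in Mertk KO. In Bai1 Tg neg, the other control set, it was 384 to 427.7 CPM, also below every Mertk WT library. No gene was called in these 4 tests among 13 of SREBP processing and endoplasmic reticulum degradation, 14 of isoprenoid use, the 12 tested of LXR targets and oxysterol enzymes, or the 19 tested of sterol movement and uptake. At an unadjusted p under 0.05, the LXR and oxysterol list held 2 of 12 (16.7%) in Mertk KO, between the control sets and in the difference of effects, against 5.58%, 7.99% and 7.53% of all genes, and 1 of 12 (8.33%) in the Bai1 comparison, against 5.18%. Cyp27a1, an oxysterol-forming hydroxylase named after its values were seen, was among them at -0.62 in Mertk KO (SE 0.12, adjusted p = 0.0746). Its libraries did not overlap, as for 3.52% of all genes in either direction. Cyp27a1 was at 42.9 to 63.8 CPM in Mertk WT, 32.9 to 36.7 CPM in Mertk KO and 35.3 to 45.3 CPM in Bai1 Tg neg. Mertk WT was thus mostly above the other control set too. The other 3 lists held 0 to 2 genes in each test, the largest share being 10.5% (2 of 19 genes of sterol movement and uptake) in the difference of effects.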

How the data were processed

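The authors deposited raw fragment counts per gene; per the file headers they were made with featureCounts 1.5.0, on paired ends that both mapped, without strand. Alignment was with STAR to GRCm38, per the submitters' processing notes, which name no STAR version or annotation release. Gene lengths came from the deposited table.

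From the counts, CPM and FPKM were computed with TMM factors over 15 libraries, and groups were compared with edgeR 4.0.16 in R 4.3.3 (filterByExpr, robust quasi-likelihood F test, two-sided, Benjamini-Hochberg over all genes, threshold 0.05). DESeq2 1.42.0 and limma 3.58.1 were alternatives, with other size factors, no low-count filter, all libraries in 1 fit, the replicate number as a block, rod marker or tag covariates and leaving out each library. Fits of tag 17 only, the tag term, summed copies (blastn 2.17.0, at least 95% identity over 150 bases) and the rod covariate without Bai1 Tg neg 4 were added after seeing the data. The fits were tested on simulated data. No 2 libraries of a group agreed within sampling noise (lowest chi-square per degree of freedom 5.28). Members, lists and tests were chosen with earlier results of these data known. Values by library were given for called members and for the 2 members per step with the smallest p over the 4 tests, each in the comparison where its p was smallest, and levels for the extremes of each step; Hmgcs1, Srebf1, Srebf2 and Dhcr7 values and Cyp51 by tag were chosen after their values were seen. The floor of 3 counts only marks genes as undetected and does not measure counting error. Fragments carry no molecular identifiers.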

Additional observations from a re-analysis of the deposited data

Results flagged for a closer look

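In groups of 4 libraries, 6 of 93 sets of member levels had a library far from the other 3 by Dixon's test, and chance gives about 1 in 20. Pmvk was at 54.1 CPM in Mertk WT 3, with the nearest library at 34.1 CPM. Sqle, the squalene epoxidase, was at 159.1 CPM in Mertk WT 3, with the nearest at 138.1 CPM. Sc5d was at 68.9 CPM in Mertk WT 2, with the nearest at 60.6 CPM. Ggps1, the geranylgeranyl diphosphate synthase, was at 19.5 CPM in Bai1 Tg neg 3, with the nearest at 23.5 CPM. Dhcr7 was at 96.7 CPM in Bai1 Tg neg 4, the library that holds Adgrb1 against its label, with the nearest at 82.7 CPM. Abcg1 was at 0.913 CPM in Mertk KO 1, with the nearest at 0.269 CPM, both from few fragments. None of these 6 genes was called in a comparison.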

How the results depend on the processing

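The number of members past the threshold was 0 in Mertk KO against Mertk WT under all 18 alternatives run. In the Bai1 comparison it was 1 in the main fit, 2 (Idi1 and Fdps) with DESeq2, with no low-count filter and with the replicate block, and 0 with all 15 libraries in 1 fit and with limma-voom. Leaving out each library gave 0 to 1, the 0 without Bai1 Tg neg 3. Over all genes, 2 were called in the main fit, 26 with DESeq2, 85 with no low-count filter and 4 with the replicate block. Between the control sets the number of members was 2 to 3 under 15 alternatives, Stard4 being the member lost. For the difference of effects leaving out each library gave 0 to 1, the 1 (Fdps) without Mertk KO 4. All 116 alternative step medians moved by less than the spread between replicates, but 14 of them changed sign, from medians of at most 0.14 in size; in Mertk KO the control genes went from 0.14 to -0.006 without Mertk WT 2. None of the 7 log2 fold changes of Idi1, Fdps and Stard4 followed across alternatives changed sign. Deviations from the group means correlated between same-numbered libraries at r from -0.074 to 0.07 for numbers 1 to 3 of the Mertk groups, at 0.2 for number 4, and at 0.003 to 0.035 in the Bai1 groups, so the numbers as a whole do not pair the libraries, and the replicate block changed no other member's call; the cause of each change was not tested. Depth limits Abcg1, with at most 17 fragments in a library.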
